A study of Homo sapiens with 8 samples.

Results

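A set of 65 genes, which include the adhesion molecule EPCAM and the desmosomal cadherin DSC2, had almost no reads in HIEC6. This line is labelled as normal human intestinal epithelium. The genes were read in every other library of the series. The genes were chosen on the raw counts. A row of the table of 54261 genes was taken when it held 500 or more counts in each of 7 libraries and 20 or fewer in HIEC6, and keratins, claudins, mucins, HOX, protocadherin and histone genes, long intergenic and antisense RNAs and a few named factors were left out by symbol. The step by symbol removed 4 genes (CDX2, CLDN3, ESRP1 and GRHL2) of 69. The 65 genes were 0.846% of the 7680 rows with 500 or more counts in the 7 libraries, and 7247 of those rows also had 500 or more counts in HIEC6. Because the low level in HIEC6 and the high level elsewhere made the set, both are given as a description without a test.

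Total RNA was sequenced after removal of ribosomal RNA from 8 cultures, 1 library each. The normal group holds the untreated lines NCM460 and HIEC6 (n = 2 lines), the CRC group the untreated colorectal cancer lines DLD1, HCT116 and HCT8 (n = 3 lines), and the hypoxia group the same 3 CRC lines under hypoxia (n = 3). The labels list no introduced allele and give neither the oxygen level nor the length of the hypoxia. The replicates of a group are different cell lines with 1 culture each, so p-values measure the spread between these libraries, and in bulk RNA fewer cells with a transcript and less transcript per cell cannot be told apart.

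Epithelial cells form sheets that separate 2 compartments. Tight junctions seal the sheet, adherens junctions and desmosomes hold neighbouring cells together through cadherins, and polarity proteins with small Rab GTPases sort membrane proteins to the apical or the basolateral side. In the intestine these systems keep the barrier between lumen and tissue, and surface proteases with their inhibitors, such as matriptase and the inhibitor encoded by SPINT1, act on the same membrane.

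The total count per library ranged from 45519306 to 57374239, and a floor of 3 counts came to 0.0523 to 0.0659 CPM (counts per 1000000 counts of that library), which covers counting error only. The library labelled NCM460 stood apart from its label, and HIEC6 did so in part by the markers given in the next paragraph. Across all rows, the Pearson correlation of log2(CPM + 1) between the libraries labelled NCM460 and HCT116 was 0.994, against 0.924 between NCM460 and HIEC6, which share a group, and 60 of the 65 genes lay within 1 log2 unit between NCM460 and HCT116, against 40 between NCM460 and DLD1 and 47 between NCM460 and HCT8. Genes are not independent replicates, and these values describe the libraries. Below, NCM460 stands for the library labelled so. No test uses it, and without it the rule found 69 genes, which included all 65.

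The markers of the labelled tissue were checked in HIEC6. It held 243272 counts of KRT8 and 211257 of KRT18, the keratins of simple epithelia, but 56 of KRT19, 172 of CDH1 (E-cadherin), 86 of CLDN4 and 22 of OCLN, and 8 of the 12 epithelial markers were below all 7 other libraries. Of 18 fibroblast or mesenchymal markers, 11 were above all 7, among them VIM with 69375 counts, FBN1 with 54905, CDH2 (N-cadherin) with 3161, ZEB1 with 954 and ZEB2 with 746, while COL1A2 (26), DCN (4) and THY1 (2) were low. The summed level of this list was 2479 CPM in HIEC6 and 15.2 to 195 CPM elsewhere, and that of 6 leukocyte markers was 1.09 CPM in HIEC6 and 1.26 to 6.44 CPM elsewhere. The summed level of 6 endothelial markers was 7.28 CPM in HIEC6 and 1.61 to 13.7 CPM elsewhere. That of 6 neural markers was 13.2 CPM in HIEC6 and 68.9 to 277 CPM elsewhere. This last sum was mostly MBP, with 10.8 CPM in HIEC6 and 68.9 to 118 CPM elsewhere. In NCM460 and both HCT116 libraries SYT1 added 68.8 to 159 CPM. The neural markers SNAP25, GFAP, RBFOX3 and OLIG2 were at or below 0.899 CPM in every library, a level that SNAP25 had in HIEC6. The part of these markers in the low counts of the 65 genes was not tested.

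The 250 bases before the start of a gene, where general and cell-type factors often bind, were searched for short words in RefSeq (GRCh38.p14), which held such a stretch for 45 of the 65 genes. The word CAGGTG, read as CACCTG on the other strand and known as an E-box that zinc-finger factors such as ZEB1 and SNAI2 can bind, was present before 22 of the 45 genes (48.9%). It was present before 20.6% of all 27305 genes in the table and before 19.8% of the 6014 genes that had 500 or more counts in the 7 libraries. Counted by stretch, since a gene can have several starts, the shares were 34.4% of 64 stretches of the set and 17.5% of all 35093. The word was singled out of 11 after its values were seen, so the shares are a description without a test. They say nothing of whether a factor is bound. Genes without the word, or without a stretch in RefSeq, could not be shown here. Stretches around the word are shown for some of the genes described below. They lie before genes of polarity and traffic (RAB25, HOOK1, MLPH, KDF1), adhesion (DSC2, LAD1), the protease inhibitor SPINT1 and the receptor EPHA1. Each runs 5′ to 3′ on the gene's strand, and the capitals mark the word or its complement.
RAB25, chr1:156061082-156061159, plus strand: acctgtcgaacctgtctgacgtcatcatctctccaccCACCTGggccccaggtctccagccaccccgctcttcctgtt
HOOK1, chr1:59814832-59814911, plus strand: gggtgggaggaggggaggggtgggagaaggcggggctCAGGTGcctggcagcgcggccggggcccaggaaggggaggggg
MLPH, chr2:237487093-237487172, plus strand: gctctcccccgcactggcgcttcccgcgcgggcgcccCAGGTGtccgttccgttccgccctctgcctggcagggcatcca
KDF1, chr1:26960469-26960536, minus strand: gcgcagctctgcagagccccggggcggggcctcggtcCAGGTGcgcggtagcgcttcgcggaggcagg
DSC2, chr18:31102535-31102614, minus strand: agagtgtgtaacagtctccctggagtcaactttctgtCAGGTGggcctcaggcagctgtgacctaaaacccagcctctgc
LAD1, chr1:201399343-201399422, minus strand: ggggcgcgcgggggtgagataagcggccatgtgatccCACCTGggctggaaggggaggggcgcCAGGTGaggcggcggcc
SPINT1, chr15:40844414-40844476, plus strand: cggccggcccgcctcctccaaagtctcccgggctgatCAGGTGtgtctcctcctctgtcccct
EPHA1, chr7:143408894-143408973, minus strand: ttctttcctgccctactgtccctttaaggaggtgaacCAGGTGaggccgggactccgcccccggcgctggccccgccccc
In LAD1 the word lies on both strands. In RAB25 it starts 41 bases before the start of the gene, in SPINT1 26 bases and in DSC2 156 bases. KDF1 has it again 204 bases before the start, which is not shown. For DSC2, MLPH and SPINT1 RefSeq held 2 stretches each, and a stretch with the word is shown.

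The other words, searched on both strands, had shares in the set nearer to those of all genes. The word CAGGTA was present before 11.1% of the 45 genes and before 9.62% of all genes. The word CACGTG had 11.1% and 7.73%, and the word ACGTG, which lies within it, 24.4% and 21.7%. The word TATAAA had 11.1% and 13.05%, the word TTTGCAT had 4.44% and 4.84%, and the short word GGAA had 95.6% and 94.0%. For AACCNGTT, a form bound by grainyhead-like factors, the shares were 0% and 1.85%. Its full palindrome AACCGGTT, one case of it, had 0% and 0.143%. With a wider gap, AACCNNNTT had 8.89% and 9.42%. The GC-rich word GGGCGG had 71.1% in the set, 46.2% in all genes and 78.6% in the genes with 500 or more counts in the 7 libraries.

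Over the whole set, HIEC6 held no read for 12 genes, 1 to 3 counts for 22, 4 to 10 for 19 and 11 to 20 for 12, with a median of 3 counts. The lowest CPM in the 7 libraries was 40.2 to 1904 times that in HIEC6, with a median of 280-fold. HIEC6 counts below 3 were set to the floor of 3 counts, so the ratio is a lower bound for the genes concerned. These include the 12 genes without a read and CNN3 (1 count), which had the highest ratio. The summed level of the 65 genes was 6.33 CPM in HIEC6, 4231 CPM in NCM460, 4752 CPM in DLD1, 3443 CPM in HCT116 and 5293 CPM in HCT8. Under hypoxia it was 4898 CPM in DLD1, 3362 CPM in HCT116 and 5764 CPM in HCT8. The library of HCT116 under hypoxia was the lowest of the 7 for 28 of the 65 genes, and the rule found 74 genes without it.

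Genes next to the thresholds show where the set ends. At the limit in HIEC6, S100A14 (20 counts), SHANK2 (19), NKD1, SH3BGRL2 and SPINT1 (18 each) were inside, and PTPN6 (21), CAMSAP3, CDH3 and PRSS8 (22 each) and CYFIP2 (23) were outside. CDH3 is P-cadherin and CAMSAP3 anchors microtubules in epithelial cells. At the minimum elsewhere, PNPLA4 (511 counts), ARHGEF34P and CRACR2A (513 each), TRIB2 (525) and GALNT18 (526) were inside. SBK1 (494), KLK7 (492), CYP2R1 (485), SLC30A4 (473) and SAMD5 (471) were outside.

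The name of an epithelial program fits the set in part. By what the genes are known to do, a grouping made after the members were seen, 8 belong to junctions and adhesion, 6 to polarity and traffic, 10 to the cell surface, 4 to proteases and their inhibitors and 3 to the nucleus. The other 34 are 13 signalling genes, 7 glycan or secreted genes, 3 non-coding RNAs or pseudogenes and 11 of other kinds, such as CNN3 (calponin 3, an actin-binding protein) and TRIM4. Of the 65 genes, 62 are protein coding by the annotation, 1 is a long non-coding RNA (KCNQ1OT1) and 1 a pseudogene (ARHGEF34P), and LOC100130899 had no match. The 64 placed genes lie on 18 chromosomes, 10 of them on chromosome 1, and the pairs within 1000000 bases of each other include KLK6 and KLK10, 43066 bp apart on chromosome 19.

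**Figure D1:**
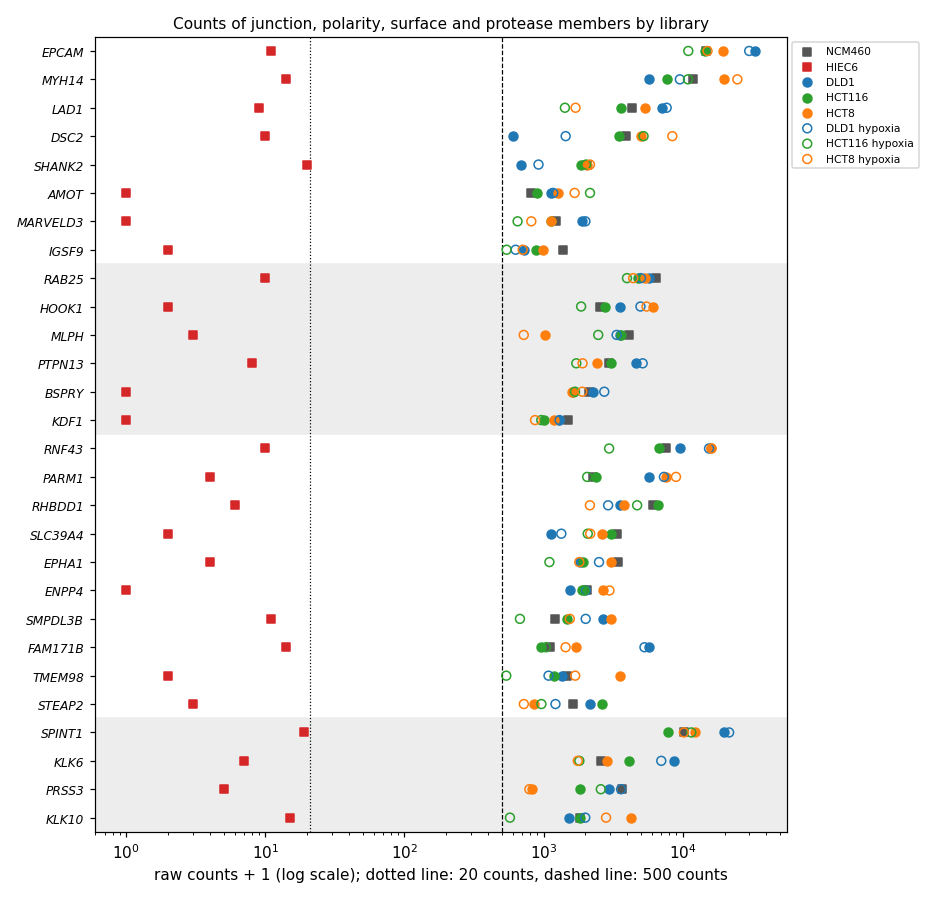
Raw counts plus 1 (x axis, log scale) of the 28 genes of junctions, polarity, surface and proteases (y axis, in 4 shaded groups) in each of the 8 libraries, with filled symbols for untreated and open symbols for hypoxia libraries. HIEC6 lies left of the dotted line (20 counts) and the other 7 libraries right of the dashed line (500 counts) in every row, as the rule requires. The spread among the 7 is narrow for RAB25 and wide for DSC2.

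Among the genes of junctions and adhesion, EPCAM, which encodes a homophilic adhesion molecule of epithelia, had the highest mean level per kilobase of exon. It lies on chromosome 2 (GRCh37, 47572297 to 47614740). It had 10 counts in HIEC6, and 301 CPM in NCM460, 651 CPM in DLD1, 275 CPM in HCT116 and 368 CPM in HCT8. Under hypoxia EPCAM stood at 524 CPM in DLD1, 198 CPM in HCT116 and 331 CPM in HCT8, so both DLD1 libraries were above the other 5. DSC2, a cadherin of the desmosome on chromosome 18 (GRCh37, 28638806 to 28682485), was low in DLD1 instead. DSC2 had 9 counts in HIEC6, 79.6 CPM in NCM460, 11.8 CPM in DLD1, 66.5 CPM in HCT116 and 94.8 CPM in HCT8, and 25.1 CPM, 94.4 CPM and 185 CPM in the 3 lines under hypoxia. Its highest level was 15.7 times its lowest among the 7 libraries. Of the rest, MARVELD3, a tight junction protein with 4 membrane spans on chromosome 16, had 0 counts in HIEC6, which allows a level of up to 0.0529 CPM. It had 24.7 CPM in NCM460, 37.0 CPM in DLD1, 21.6 CPM in HCT116 and 21.4 CPM in HCT8, and 34.8 CPM, 11.7 CPM and 17.9 CPM in the same lines under hypoxia. MARVELD3 was thus highest in both DLD1 libraries.

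LAD1 encodes ladinin-1, a protein of basement membranes. It had 8 counts in HIEC6, 87.5 CPM in NCM460, 139 CPM in DLD1, 69.0 CPM in HCT116 and 101 CPM in HCT8, with 134 CPM, 25.7 CPM and 37.3 CPM under hypoxia. The hypoxia libraries of HCT116 and HCT8 were its lowest. MYH14, a non-muscle myosin heavy chain, had 13 counts in HIEC6 and 111 CPM (DLD1) to 543 CPM (HCT8 under hypoxia) elsewhere. SHANK2, a scaffold protein, had 19 counts in HIEC6 and 13.5 to 47.3 CPM elsewhere, lowest in both DLD1 libraries. AMOT (angiomotin, a junction protein of the Hippo pathway) had 0 counts and IGSF9, an immunoglobulin-like adhesion protein, 1 count in HIEC6. In the 7 libraries AMOT ranged from 16.6 to 38.9 CPM and IGSF9 from 9.77 to 28.2 CPM.

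The 6 genes of polarity and traffic had a median ratio of highest to lowest CPM among the 7 libraries of 2.37. It was 3.40 for the 8 junction genes and 4.15 for the 10 surface genes. Within the 6, a grouping made after the members were seen, the ratio ran from 1.57 (BSPRY) and 1.76 (KDF1) to 5.26 (MLPH). The median thus depends on which genes are placed in this group. RAB25, a Rab GTPase of apical recycling in epithelia on chromosome 1 (GRCh37, 156030951 to 156040295), had 9 counts in HIEC6, 130 CPM in NCM460, 113 CPM in DLD1, 90.7 CPM in HCT116 and 101 CPM in HCT8. Under hypoxia RAB25 had 87.3 CPM in DLD1, 71.8 CPM in HCT116 and 96.8 CPM in HCT8. All 7 values lay within a factor of 2 of each other. KDF1, an epidermal differentiation factor, and BSPRY had 0 counts in HIEC6 and 17.4 to 30.5 CPM and 30.3 to 47.6 CPM in the 7 libraries. MLPH encodes melanophilin, an effector of Rab27 in vesicle transport. It had 2 counts in HIEC6, 83.1 CPM in NCM460, 68.8 CPM in DLD1, 69.5 CPM in HCT116 and 19.4 CPM in HCT8, and 58.4 CPM, 44.6 CPM and 15.8 CPM in the same lines under hypoxia. The 2 HCT8 libraries were thus below the other 5. HOOK1, a linker of cargo to microtubules, had 1 count in HIEC6 and 33.6 to 121 CPM elsewhere, and PTPN13, a phosphatase with PDZ domains, had 7 counts and 31.0 to 90.6 CPM.

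On the surface, RNF43, a membrane E3 ligase that removes Wnt receptors, had the highest mean level per kilobase of exon of the 10 genes. It had 9 counts in HIEC6, 153 CPM in NCM460, 186 CPM in DLD1, 129 CPM in HCT116 and 302 CPM in HCT8, and 270 CPM, 53.4 CPM and 354 CPM under hypoxia. HCT116 under hypoxia was its lowest library and HCT8 under hypoxia its highest. EPHA1, an ephrin receptor, had 3 counts in HIEC6, 69.7 CPM in NCM460, 35.6 CPM in DLD1, 36.8 CPM in HCT116 and 58.0 CPM in HCT8, and 43.6 CPM, 19.9 CPM and 39.7 CPM under hypoxia. The others had 0 to 13 counts in HIEC6, 0 of them in ENPP4, a surface phosphodiesterase. SLC39A4, a zinc importer of the intestine, ranged from 22.1 to 68.3 CPM in the 7 libraries and STEAP2, a metalloreductase, from 15.8 to 50.2 CPM. PARM1 was highest in both HCT8 libraries (144 and 197 CPM) and FAM171B in both DLD1 libraries (112 and 92.6 CPM). RHBDD1, a rhomboid protease, was placed with the surface genes by this grouping, and its site in the cell was not checked. It had 124 CPM in NCM460, 128 CPM in HCT116 and 84.9 CPM in HCT116 under hypoxia. In the libraries of DLD1 and HCT8 it had 47.3 to 71.6 CPM. TMEM98 and SMPDL3B were lowest in HCT116 under hypoxia, at 9.71 and 12.2 CPM.

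SPINT1, an inhibitor of membrane serine proteases on chromosome 15 (GRCh37, 41136216 to 41150405), had 18 counts in HIEC6, 209 CPM in NCM460, 384 CPM in DLD1, 151 CPM in HCT116 and 234 CPM in HCT8, and 376 CPM, 208 CPM and 224 CPM under hypoxia. Both DLD1 libraries were again above the rest. The kallikrein KLK6, a secreted serine protease, had 6 counts in HIEC6 and 32.6 to 170 CPM elsewhere, highest in both DLD1 libraries, and its neighbour KLK10 had 14 counts and 10.3 to 80.8 CPM. PRSS3, a trypsinogen, had 4 counts in HIEC6 and was lowest in both HCT8 libraries (15.6 and 17.3 CPM). Its value is uncertain, since reads can be shared with other trypsinogen genes and the treatment of such reads is not given in the sources used here. Of the nuclear factors, OVOL1, a zinc-finger factor of epithelia, had 1 count in HIEC6 and 15.1 to 46.5 CPM elsewhere. H2AFY2, a macroH2A histone, had 5 counts and 19.1 to 54.9 CPM.

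Per kilobase of annotated exon, the 8 highest of the 65 genes over the 7 libraries were S100A14 (217 ± 79.9 CPM per kb, SD, n = 7 libraries), EPCAM (156 ± 64.5), SPINT1 (72.0 ± 25.2), CNN3 (63.8 ± 27.1), RAB25 (58.4 ± 11.1), KLK6 (39.7 ± 25.5), RNF43 (32.6 ± 16.7) and PRSS3 (31.0 ± 15.9). Each neighbouring pair in this order differed by less than the sum of its SDs. S100A14 is a small calcium-binding protein of the S100 family. The ratio of highest to lowest CPM among the 7 libraries ran from 1.29 (ARHGEF34P) to 25.8 (CEMIP, a hyaluronan-degrading protein), with a median of 3.16, against 2.37 for all 7680 rows with 500 or more counts in the 7 libraries. It was under 3 for 27 genes and over 10 for 4 (CEMIP, DSC2, MACC1 and SH3BGRL2).

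The lists of known epithelial genes show how many genes of each system met the rule. These lists were drawn up with earlier results of these data known, and the counts describe them. Of 11 desmosome genes, 8 had 500 or more counts in the 7 libraries, and of these DSC2 had 20 or fewer in HIEC6 and the other 7 had 500 or more. Of 14 tight junction genes, 9 reached that level, with MARVELD3 at 0 counts, 1 gene between the limits and 7 at 500 or more in HIEC6. None of 12 adherens junction genes met the rule, with 9 at 500 or more in the 7 libraries, 7 of which were at 500 or more in HIEC6 as well and 2, CDH1 and CDH3, in between. Of 33 polarity and apical traffic genes, 25 reached 500 in the 7 libraries, and RAB25 alone of them had 20 or fewer in HIEC6, while 6 lay between and 18 at 500 or more. EPCAM was 1 of 9 surface adhesion genes, EPHA1 1 of 15 surface receptors and SPINT1 1 of 5 membrane proteases and inhibitors at that level. The corresponding numbers for transcription and splicing factors were 12, of which 5 had 20 or fewer counts in HIEC6, among them OVOL1 and, left out by symbol, GRHL2, CDX2 and ESRP1. For 6 transport genes at that level, 5 had 500 or more counts in HIEC6 and none 20 or fewer. A count of 500 or more in HIEC6 does not mean a level like that of the other libraries. HIEC6 was below all 7 other libraries for 10 of 11 desmosome genes and 11 of 14 tight junction genes. The same held for 8 of 12 adherens junction genes and 24 of 33 polarity and traffic genes. HIEC6 was above all 7 for 0, 0, 2 and 1 genes of these lists.

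**Figure D2:**
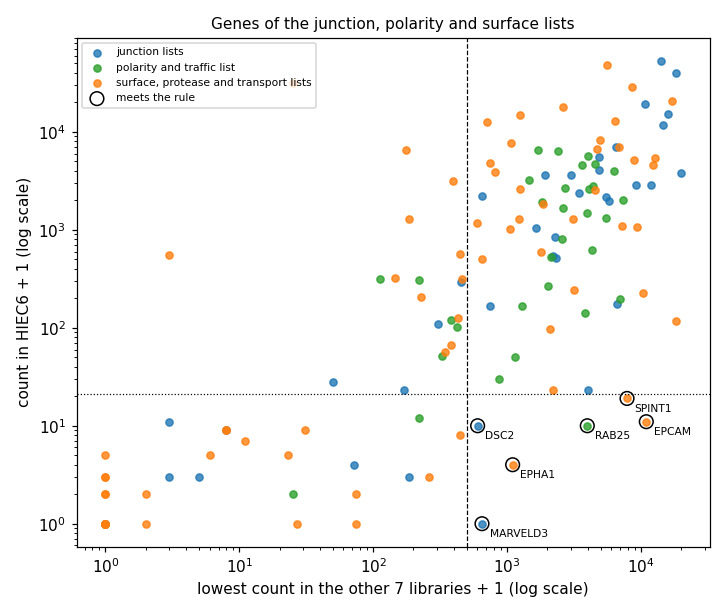
Count in HIEC6 plus 1 (y axis, log scale) against the lowest count in the other 7 libraries plus 1 (x axis, log scale) for the genes of the junction, polarity and surface lists. Circled genes meet the rule (500 or more elsewhere, right of the dashed line, and 20 or fewer in HIEC6, below the dotted line), and most of the genes right of the dashed line lie above 500 counts in HIEC6 too.

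The 3 CRC lines were compared with each other to ask how the genes differ among lines that all express them, a contrast the rule did not use. The 6 CRC libraries were fitted with line and treatment as terms (edgeR, quasi-likelihood), p-values were adjusted by Benjamini-Hochberg over all 21045 genes tested, the threshold was 0.05, and each line had 2 libraries, 1 untreated and 1 under hypoxia. No line had 2 cultures under the same condition, so the error here is the part of the line differences that the treatment changes. These p-values describe the cultures used and not the variation between cultures of a line. All 65 genes passed the filter on low counts, as the rule ensured. Between HCT116 and DLD1, 30 of the 65 genes were called, 13 higher and 17 lower in HCT116, against 32.0% of all genes tested. Between HCT116 and HCT8 the test called 21 (8 higher and 13 lower in HCT116) against 27.0%, and between HCT8 and DLD1 21 (10 higher and 11 lower in HCT8) against 15.7%. Among the 7680 rows with 500 or more counts in the 7 libraries the shares were 29.4%, 23.2% and 13.5%. The median size of the fitted log2 fold change, either sign, was 0.67, 0.46 and 0.56 for the 65 genes, 0.48, 0.43 and 0.36 for those rows and 0.84, 0.76 and 0.61 for all genes tested. Leaving out 1 of the 6 libraries moved the 3 counts of the set to 16 to 40, 9 to 27 and 8 to 36. At least 1 pair of lines was called for 40 genes (61.5%) and no pair for 25, against at least 1 pair for 43.3% of all genes tested and 42.1% of the 7680 rows. All 3 pairs were called for 2 genes (3.08%), CEMIP and MACC1, a regulator of MET signalling, against 3.7% of all genes tested and 1.42% of the rows.

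In junctions, DSC2 differed most. Its level was higher in HCT116 than in DLD1 by a log2 fold change of 2.42 (SE 0.22, adjusted p = 0.000113, edgeR) and higher in HCT8 than in DLD1 by 2.79 (SE 0.22, adjusted p = 0.000175, edgeR). SHANK2 followed DSC2, with 1.51 (SE 0.23) and 1.39 (SE 0.23), while EPCAM (-1.10, SE 0.21, and -0.89, SE 0.20), LAD1 (-1.53, SE 0.34, and -1.33, SE 0.34) and MARVELD3 (-0.95, SE 0.25, and -1.03, SE 0.25) were lower in HCT116 and in HCT8 than in DLD1. MYH14 was higher in HCT8 than in DLD1 (1.57, SE 0.21) and lower in HCT116 than in HCT8 (-1.03, SE 0.21). AMOT and IGSF9 were called in no pair. In polarity and traffic, MLPH was higher in HCT116 than in HCT8 (2.04, SE 0.22, adjusted p = 0.000352, edgeR) and lower in HCT8 than in DLD1 (-2.01, SE 0.22). HOOK1 was lower in HCT116 than in HCT8 (-1.11, SE 0.23), and PTPN13 was lower in HCT116 (-0.86, SE 0.23) and HCT8 (-1.20, SE 0.23) than in DLD1. RAB25, KDF1 and BSPRY were called in no pair.

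Of the 10 surface genes, 8 were called in at least 1 pair, all but EPHA1 and ENPP4, against the 43.3% of all genes tested given above. FAM171B was lower in HCT116 (-2.23, SE 0.25) and in HCT8 (-1.82, SE 0.24) than in DLD1. PARM1 was lower in HCT116 than in DLD1 (-1.31, SE 0.22) and than in HCT8 (-1.66, SE 0.22), and RNF43 likewise (-1.17, SE 0.35, and -1.54, SE 0.35). RHBDD1 was higher in HCT116 than in both other lines (1.03, SE 0.21, and 1.21, SE 0.21). SLC39A4 was higher in HCT116 (1.25, SE 0.23) and HCT8 (0.95, SE 0.23) than in DLD1, SMPDL3B lower in HCT116 than in DLD1 (-0.98, SE 0.23) and HCT8 (-0.89, SE 0.23), and TMEM98 lower in HCT116 than in HCT8 (-1.37, SE 0.24) and higher in HCT8 than in DLD1 (1.0001, SE 0.24). STEAP2 was higher in HCT116 than in HCT8 (1.23, SE 0.32). Among proteases and inhibitors, KLK6 was lower in HCT116 (-1.28, SE 0.23) and in HCT8 (-1.80, SE 0.23) than in DLD1. PRSS3 was higher in HCT116 than in HCT8 (1.67, SE 0.26) and lower in HCT8 than in DLD1 (-2.03, SE 0.26), SPINT1 was lower in HCT116 than in DLD1 (-0.86, SE 0.27), and KLK10 was lower in HCT116 than in HCT8 (-1.46, SE 0.37).

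Outside these roles, the largest differences between HCT116 and DLD1 were those of MACC1 (-3.34, SE 0.24), SH3BGRL2 (-3.00, SE 0.22), LIPG (-2.67, SE 0.35), CEMIP (-2.13, SE 0.31), TRIB2 (2.34, SE 0.26), RAC2 (2.11, SE 0.27) and GALNT18 (2.02, SE 0.26). LIPG is a secreted lipase, TRIB2 a pseudokinase, RAC2 a small GTPase best known from blood cells and GALNT18 an enzyme of O-glycosylation. NKD1, an inhibitor of Wnt signalling, was higher in HCT8 than in DLD1 (2.63, SE 0.22) and lower in HCT116 than in HCT8 (-2.07, SE 0.22). CEMIP was also lower in HCT116 than in HCT8 (-3.40, SE 0.33).

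With each of the 6 libraries left out in turn, every one of these called fold changes kept its sign. Of their sizes, 7 moved by over 1.5 times. Between HCT116 and DLD1, LAD1 had -0.87 without DLD1 under hypoxia, RNF43 had -1.84 without untreated HCT116, -0.74 without DLD1 under hypoxia and -0.54 without HCT116 under hypoxia, and SPINT1 had -0.42 without untreated HCT116 and -1.29 without HCT116 under hypoxia. Between HCT116 and HCT8, RNF43 had -0.94 and KLK10 -0.86 without HCT116 under hypoxia, and STEAP2 had 0.73 without untreated HCT8. Between HCT8 and DLD1, LAD1 had -0.70 without DLD1 under hypoxia and -0.88 without HCT8 under hypoxia. The calls of DSC2, MLPH, KLK6, PARM1, MACC1, NKD1, SH3BGRL2, RAC2, TRIB2 and CEMIP with a fold change given above held in all 6 fits. So did SHANK2, FAM171B, LIPG and GALNT18 between HCT116 and DLD1 and MYH14 and PRSS3 between HCT8 and DLD1. The calls of MACC1 between HCT116 and HCT8 and of CEMIP between HCT8 and DLD1 were not followed through these fits. Those of EPCAM, MARVELD3, SLC39A4 and TMEM98 between HCT8 and DLD1 were lost without any of the 4 libraries of these lines, with adjusted p up to 0.274, 0.279, 0.286 and 0.254 (edgeR). LAD1, SHANK2 and PTPN13 lost theirs without either HCT8 library or without DLD1 under hypoxia (up to 0.422, 0.0903 and 0.156), and FAM171B without HCT8 under hypoxia (0.0535). Between HCT116 and DLD1, the calls of MARVELD3, PTPN13 and SPINT1 were each lost in 4 or 5 of the 6 fits (up to 0.208, 0.216 and 0.224) and that of RNF43 without any of the 3 hypoxia libraries (up to 0.271). The calls lost there in 1 or 2 fits were EPCAM and SLC39A4 without untreated DLD1 (0.0529 and 0.0538), LAD1 and SMPDL3B without DLD1 under hypoxia (0.121 and 0.140) and RHBDD1 without either DLD1 library (up to 0.0814). Between HCT116 and HCT8, HOOK1, MYH14, KLK10, RNF43, RHBDD1 and SMPDL3B lost theirs without either HCT8 library (up to 0.119, 0.114, 0.143, 0.118, 0.124 and 0.196), PRSS3 without HCT8 under hypoxia (0.0601), TMEM98 without untreated HCT8 (0.0789) and STEAP2 without untreated HCT116 or untreated HCT8 (up to 0.282).

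**Figure D3:**
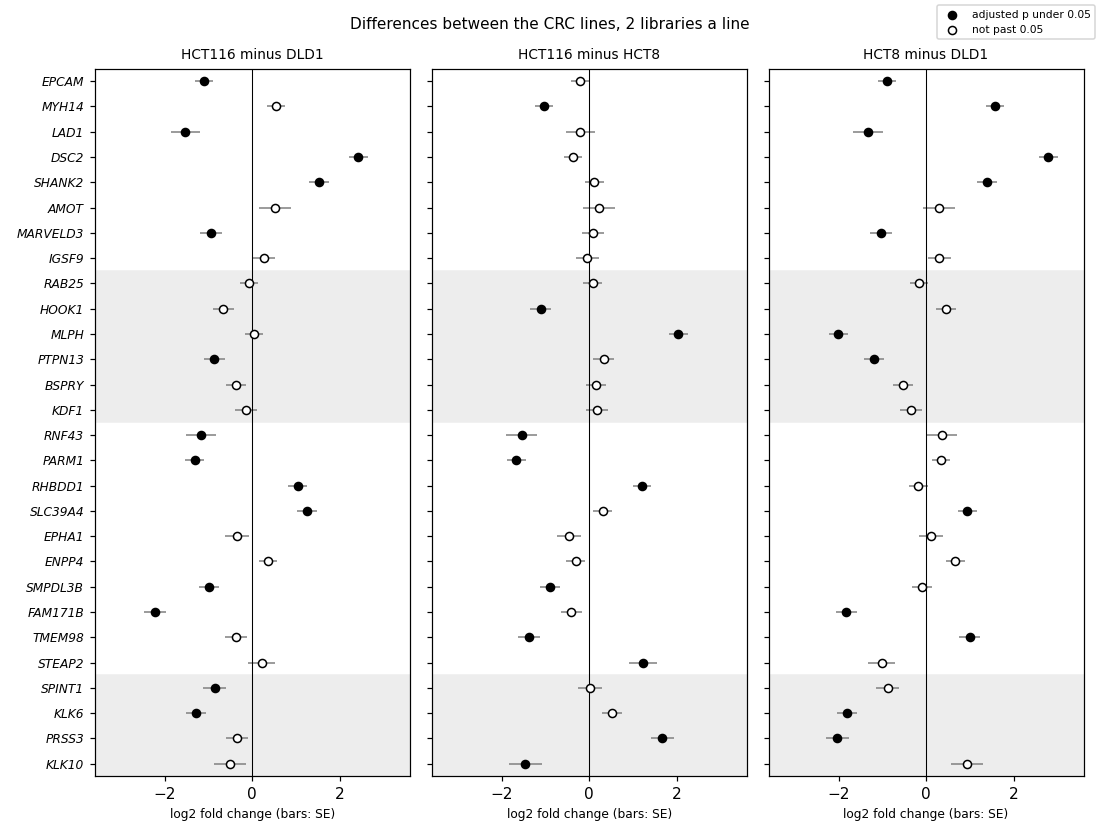
Fitted log2 fold change (x axis, bars are SE) of the 28 genes of junctions, polarity, surface and proteases (y axis) between each pair of CRC lines, 2 libraries a line, with filled points for adjusted p under 0.05 and open points for the rest. DSC2 is far to the right in both comparisons with DLD1, and RAB25, KDF1 and BSPRY have open points in all 3 panels.

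The wider lists in the same fits give the setting for these genes. Between HCT116 and DLD1, the test called 2 of 11 desmosome genes higher and 3 lower, 2 of 14 tight junction genes higher and 3 lower, 5 of 33 polarity and traffic genes higher and 7 lower, and 5 of 21 surface adhesion genes higher and 8 lower. The median log2 fold changes of these lists were 0.20, -0.45, -0.18 and -1.11, and that of all genes tested was -0.02. Between HCT116 and HCT8 the calls were 1 higher and 2 lower (desmosome), 1 and 1 (tight junction), 4 and 8 (polarity and traffic) and 5 and 8 (surface adhesion), with medians of -0.23, 0.03, -0.43 and -1.39 against -0.04. Between HCT8 and DLD1 they were 3 and 2, 0 and 1, 3 and 1, and 2 and 9 in the same order, with medians of 0.08, -0.23, 0.19 and -0.35 against 0.01. Of the 10 membrane protease genes, 6 were lower and none higher in HCT116 than in DLD1, and the same count held against HCT8. The genes were not all the same, with PRSS22 and SPINT1 called only against DLD1 and PRSS8 and HPN only against HCT8. Of all genes tested, 32.0% were called between HCT116 and DLD1, 27.0% between HCT116 and HCT8 and 15.7% between HCT8 and DLD1.

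Hypoxia was compared with no treatment in the 3 CRC lines, again a contrast the rule did not use. The codes in the labels' description field are shared by no untreated and hypoxia library of these lines, so what the codes mark, which the labels do not state, and the treatment cannot be told apart. Without a block for the line, edgeR's test called 0 of 21045 genes (0.0%), with 607 (2.88%) at an unadjusted p under 0.05, and 0 of the 65 genes, with 2 (3.08%) at an unadjusted p under 0.05. DESeq2 called 51 genes (0.242%) in this design and limma-trend 0, and neither called one of the 65. With the line as a block, since the libraries of a line are paired, edgeR called 200 genes (0.95%) and 1 of the 65 (1.54%), and 19 of the 65 (29.2%) had an unadjusted p under 0.05, against 18.5% of all genes tested. The gene was DSC2, higher under hypoxia by a log2 fold change of 0.99 (SE 0.17, adjusted p = 0.0452, edgeR) and higher in 3 of 3 lines, from 11.8 to 25.1 CPM in DLD1, from 66.5 to 94.4 CPM in HCT116 and from 94.8 to 185 CPM in HCT8. The call was lost with the line DLD1 left out (adjusted p = 0.106, edgeR) or HCT8 (0.435), and in limma-trend with the block (0.0573). Among the 7680 rows with 500 or more counts in the 7 libraries, the block fit of edgeR called 97 (1.26%). The share of those rows at an unadjusted p under 0.05 was not counted.

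Other genes of the set had fitted values as large that did not pass this test. With the line as block, GEM, a small GTPase, had the largest fitted value (1.74, SE 0.36, adjusted p = 0.0747, edgeR), and CNN3 had 1.02 (SE 0.23, adjusted p = 0.0815, edgeR). Both were higher in 3 of 3 lines, GEM from 10.8 to 26.7 CPM in DLD1, from 15.0 to 87.6 CPM in HCT116 and from 14.04 to 27.9 CPM in HCT8. LAD1 (-0.84, SE 0.27) and SMPDL3B (-0.72, SE 0.19) had values below 0 in 3 of 3 lines and adjusted p of 0.164 and 0.109 (edgeR). DESeq2 with the block called 9 of the 65 (13.8%), against 7.92% of all genes tested, many of them at lower counts. Its share among the 7680 rows with 500 or more counts in the 7 libraries was not counted. DSC2, CNN3, GEM, MYH14, RAC2 and TRIB2 were called higher and KLK6, SMPDL3B and TMEM98 lower under hypoxia. The median log2 fold change of the 65 genes was 0.01 without the block and 0.03 with it, against 0.06 and 0.03 for all genes tested. By line, the median difference of the 65 genes was 0.08 log2 CPM in DLD1, -0.17 in HCT116 and -0.05 in HCT8. Of the genes, 12 were higher in 3 of 3 lines, 18 lower in 3 of 3 and 35 mixed. A difference beyond 1 log2 unit was seen for 15 genes in HCT116, from KLK10 at -1.75 to GEM at 2.55, and for 2 genes in each of DLD1 and HCT8. These counts and those by direction were not made over all genes. They do not show whether the set differs from other genes in these lines.

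**Figure D4:**
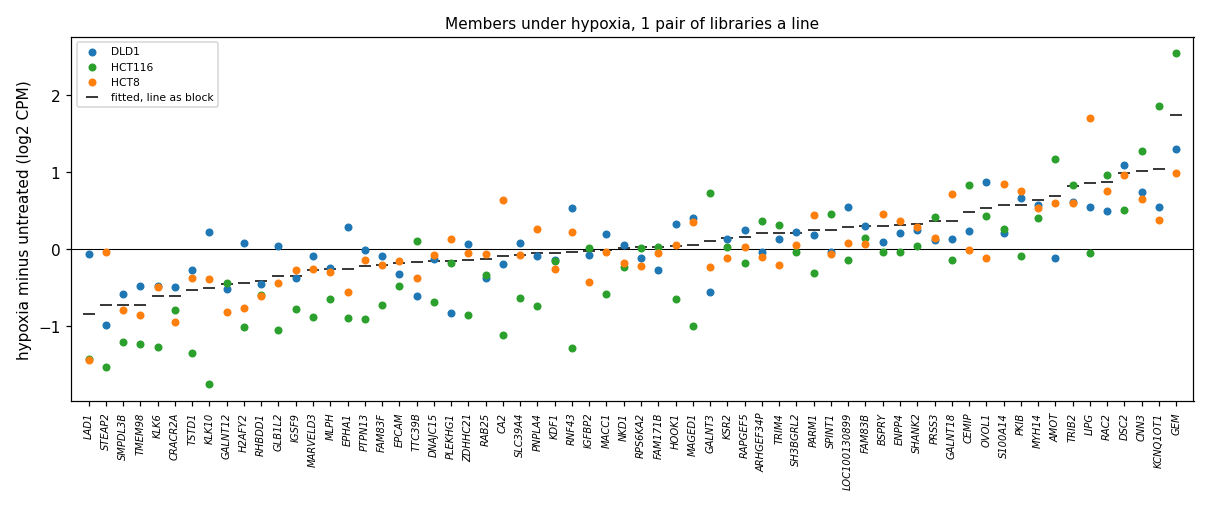
Difference between hypoxia and untreated libraries (y axis, log2 CPM) of 64 of the 65 genes (x axis, ordered by the fitted value when the line is a block, shown as dashes) in each of 3 CRC lines (coloured points, 1 pair of libraries a line). The dashes lie on both sides of 0, and the points of HCT116 reach furthest, from -1.75 to 2.55.

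By role, 4 of 8 genes of junctions and adhesion had a positive fitted value with the block, 2 of 6 of polarity and traffic, 3 of 10 of the surface and 2 of 4 of proteases and inhibitors. In the wider lists, the fit with the block called DSC2 among 11 desmosome genes, TJP3 among 14 tight junction genes (1.16, SE 0.17), SCNN1A among 14 transport genes (1.42, SE 0.18), none of 33 polarity and traffic genes and none of 21 surface adhesion genes. The median log2 fold changes of the desmosome, tight junction, polarity and traffic and surface adhesion lists were 0.60, 0.25, 0.29 and 0.41. KRT19 (1.56, SE 0.17) and FN1 (2.80, SE 0.42) were called among the cell type markers. All 16 mesenchymal markers tested had positive fitted values, with a median of 1.88, in the same fit, but only FN1 of them was called. They did not all rise in every line. In HCT8, VIM went from 1.03 to 0.22 CPM under hypoxia and COL6A3 from 0.703 to 0.0879 CPM. PDGFRB rose there from 3.67 to 8.46 CPM and FBN1 from 1.69 to 2.37 CPM. In HCT116, TWIST1 went from 2.28 to 1.61 CPM. The part of these markers in the values of the 65 genes under hypoxia was not tested.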

How the data were processed

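Total RNA depleted of ribosomal RNA was sequenced from 8 cell line cultures, and the authors deposited 1 table of raw counts per gene, all 8 columns of which were used. The study's methods name GRCh37.p13, while the submitters' processing notes name GRCh38 and HISAT2 2.0.4, and the counter, the strand and the treatment of reads with several matches are not given in the sources used here, so counts of overlapping genes, such as KCNQ1OT1 within KCNQ1, and of close paralogs, such as PRSS3, are uncertain. The extraction text of the labels names brain tissue, which does not match cell lines. Groups, lines and replicate numbers came from the labels.

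The members and the gene lists were chosen with earlier results of these data known. Contrasts were fitted with edgeR 4.0.16 (TMM, glmQLFit, glmQLFTest, at least 10 counts in at least 2 libraries) in R 4.3.3 on the counts of the 6 CRC libraries, with Benjamini-Hochberg adjustment over all genes tested. The SE is the fold change over the root of F. The alternatives were DESeq2 1.42.0, limma-trend (limma 3.58.1), upper-quartile normalization, other filters, each library left out, other limits of the rule and the replicate block. The replicate number is the line and pairs the libraries: after subtraction of the group means, both libraries of a line correlated at 0.836, 0.857 and 0.820, and libraries of different lines at -0.611 to -0.06. Scripts were tested on simulated data. Positions and exon lengths come from GENCODE release 44 lifted to GRCh37, matched by symbol for 64 of the 65 genes, 1 of them through a synonym. Promoter stretches come from RefSeq (GRCh38.p14).

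Named were list genes in the set, the 8 highest per length, at most 5 per direction in each contrast and those next to the thresholds. The genes of junctions, polarity, surface and proteases beyond these were added after their values were seen. The values of 1 gene of the set are not reported here.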

Additional observations from a re-analysis of the deposited data

How the results depend on the processing

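With the replicate block, hypoxia called 200 genes and 1 of the set (DSC2) where the fit without it called 0, and DESeq2 called 51 genes without the block and 1666 with it, 9 of them in the set. Upper-quartile normalization with the block gave 215 genes and 1 of the set, and limma-trend with the block gave 113, both chosen after seeing the data. With the block and 1 line left out as a pair, 6 genes were called without HCT8, 292 without DLD1 and 738 without HCT116, with 0, 0 and 4 of the set, and without the block 0 genes were called in each of 6 fits that left out 1 library. In edgeR's fits the block changed no other call of the set, and the median of the set stayed within the spread between lines. Requiring 10 counts in every library left fewer genes to test, and 4483 (HCT116 and DLD1) and 3584 (HCT116 and HCT8) were called. Leaving out each library gave 2978 to 7696 genes and 16 to 40 of the set between HCT116 and DLD1, 2184 to 6999 and 9 to 27 between HCT116 and HCT8, and 937 to 6782 and 8 to 36 between HCT8 and DLD1. The lowest counts came without DLD1 under hypoxia or untreated DLD1 in the first, and without a library of HCT8 in the others, and the highest without a library of HCT116. The cause was not tested. The rule found 118 genes at 300 or more counts and 30 at 1000 or more, and 66 to 74 with 1 of the 7 libraries ignored. Of 623 values of single genes under alternatives, 549 kept their side of the threshold, 70 lost a call, 4 gained one and none changed sign. The genes between lines were picked because the main fit called them, so they could keep or lose a call but not gain one. Gains could come only from DSC2 under hypoxia. With 2 libraries a line, a fit without 1 of them rests on 1 library for that line, assumed to vary like the others.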
